A study of Mus musculus with 80 samples.

Results

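The genes described here are 7 genes of the oligodendrocyte lineage and its progenitors, *Pdgfra*, *Cspg4*, *Olig1*, *Olig2*, *Sox10*, *Gpr17*, and *St18*, followed through every way in which microglial RNA was prepared from mouse brain. They were chosen by gene symbol and not by a rule on their values, though earlier results of these data were known. All 7 are listed among the 15919 genes of the sort comparison and among the 16000 genes of the cell preparation comparison. On mm10, *Pdgfra* (Entrez 18595) lies at chr5:75152291-75198204 (+), *Cspg4* (121021) at chr9:56865104-56899870 (+), *Olig1* (50914) at chr16:91269769-91271939 (+), *Olig2* (50913) at chr16:91225550-91228677 (+), *Sox10* (20665) at chr15:79154913-79164490 (-), and *St18* (240690) at chr1:6487231-6860940 (+). *Gpr17* (574402) overlaps *Lims2*, which is on the opposite strand, and the authors aligned reads with the strand taken into account.

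All mice carried the genotype Cx3cr1(Jung)-cre/Ert2+;NuTRAP+ and were of both sexes. They received daily intraperitoneal tamoxifen at about 3 months of age, after which the inducible cre, driven by the *Cx3cr1* promoter, tags the ribosomes of CX3CR1+ cells with eGFP. This cre is not particular to microglia, since circulating and peripheral CX3CR1+ cells recombine too, and brains were taken only after a wait for tagged blood cells to be replaced. Each library carries the number of 1 mouse, with no pooling of animals stated, and more brain was needed for the RNA of the Dounce suspension than for the other preparations. Input is the RNA before the pull-down with an anti-GFP antibody, and TRAP (translating ribosome affinity purification) is the RNA that the pull-down retained. The sort comparison (48 libraries) holds Input and TRAP of tissue homogenate (Tissue), of a papain cell suspension (Cell), and of cells sorted from such a suspension by CD11b magnetic beads (autoMACS), by beads and then cartridge-based FACS (autoMACS to Tyto), by cartridge-based FACS alone (Tyto), or by cytometer-based FACS (FACSAria), the FACS gates being CD11b+CD45+eGFP+. Tissue, Cell, autoMACS, and FACSAria had 4 mice per fraction, autoMACS to Tyto had 3, and Tyto had 5. The cell preparation comparison (32 libraries, 4 mice per group and fraction) holds Tissue, the papain suspension without inhibitors (Cell (-) Inhib) and with transcription and translation inhibitors (Cell (+) Inhib), and a mechanical Dounce suspension kept cold throughout, none of them sorted.

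Oligodendrocyte progenitors divide and migrate in the adult brain, and some of them leave the cell cycle, pass through a committed precursor stage, and become myelinating oligodendrocytes. Progenitors carry the receptor for PDGF-AA, encoded by *Pdgfra*, and the proteoglycan NG2, encoded by *Cspg4*. *Pdgfra* is also made by fibroblasts, and *Cspg4* by pericytes and vascular smooth muscle. The helix-loop-helix factors *Olig1* and *Olig2* and the SRY-box factor *Sox10* are made along the whole lineage, the G-protein-coupled receptor *Gpr17* marks committed precursors, and *St18* is a zinc finger factor found in oligodendrocytes and some neurons.

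The total of counts per library, to 6 digits, was 7129460 to 18514900 in Input and 11795700 to 20168100 in TRAP of the sort comparison. In the cell preparation comparison it was 8617630 to 11262700 in Input and 8701730 to 14650300 in TRAP outside the Dounce groups, 5107600 to 9751830 in Dounce-Input, and 2471450 to 4724540 in Dounce-TRAP, so the low values of Dounce-TRAP are the least precise. 1 library stood apart from its group, autoMACS-Input replicate 3, which differed from the other autoMACS-Input libraries by a chi-square of 59.1 to 100.3 per gene, where these differed among themselves by 8.52 to 14.1. The labels were checked against 9 microglial genes, *Cx3cr1*, *Tmem119*, *P2ry12*, *Csf1r*, *C1qa*, *Siglech*, *Fcrls*, *Trem2*, and *Itgam*. Their summed level, relative to Tissue-Input, was 1936% in Cell-Input, 2372% in Tissue-TRAP, and 12657% to 15210% in the 4 sorted Input groups. Levels are CPM, the counts of a gene scaled to TMM-normalized library sizes, and the 2 comparisons were normalized separately, so a level is compared only within a comparison. Each test is edgeR's quasi-likelihood test, with the false discovery rate (FDR) taken over all genes of the fit, and a gene is called higher or lower at an FDR under 0.1 and a fold change above 2. All 7 genes passed the filter of the 6 fits used for the results. For most of them the filter on low counts was passed through the tissue and suspension groups and not through the sorted groups, so the number called lower in a sort describes genes picked for being detected before it.

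In tissue the 7 genes were measured with a narrow spread between mice. *Olig1* was by far the highest in Tissue-Input of the sort comparison, at 134, 137, 138, and 148 CPM in the 4 mice. *Sox10* had 37.4 to 42.9 CPM, *Olig2* 25.9 to 34 CPM, *Gpr17* 23.2 to 24.8 CPM, and *Pdgfra* 21.2 to 26.7 CPM. *Cspg4* had 11.5 to 14.1 CPM and *St18* 9.98 to 14.7 CPM, and these ranges overlap. Per kilobase of exon the means were 64.4 CPM for *Olig1*, 12.9 for *Sox10*, 12.2 for *Olig2*, 4.61 for *Gpr17*, 2.31 for *Pdgfra*, 1.91 for *St18*, and 1.06 for *Cspg4*. Per length *Olig1* thus stays highest, and *Cspg4* is lowest.

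The first question is what the papain suspension does to these transcripts before any sorting. The lineage factors were at higher CPM in the suspension than in tissue, and the progenitor surface genes less clearly so. *Sox10* had 96.2, 120, 134, and 152 CPM in Cell-Input, all above the highest tissue value of 42.9 CPM, a 3.42-fold difference (log2 1.77 ± 0.28 SE, FDR = 5.9e-06). *Olig2* had 77.4, 80.4, 81.1, and 116 CPM, which is 3.07-fold higher (FDR = 1.5e-06). *Olig1* had 284, 286, 312, and 411 CPM, which is 2.48-fold higher (FDR = 0.00041), and again no mouse overlapped with tissue. The precursor receptor *Gpr17*, at 37.2 to 56.4 CPM, and *St18*, at 21.8 to 36.8 CPM, were 2.23-fold and 2.41-fold higher (FDR = 0.002 and 0.0023), also without overlap. Here and in the later comparisons, the share of all genes without overlap was not taken, so a lack of overlap only describes the values.

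The progenitor surface genes did not pass the test in the suspension. *Cspg4* had 20.7, 21.1, 21.8, and 26.7 CPM, above every tissue value, yet its 1.91-fold difference was under the fold threshold (log2 0.93 ± 0.44 SE, FDR = 0.063). *Pdgfra* had 21.9, 25.0, 32.7, and 33.9 CPM against 21.2 to 26.7 CPM in tissue, and the groups overlapped (log2 0.39 ± 0.38 SE, FDR = 0.37). Thus 5 of the 7 genes were called higher, where 28.5% of all genes tested were. The suspension also differed in its makeup. All 9 neuronal genes of the list were called lower, and their summed level fell to 11.8% of tissue, while all 12 myelin genes were called higher, with a summed level of 338%, and all 10 endothelial genes were called higher, with a summed level of 2420%. In such mixed RNA, fewer cells of a type and less RNA per cell cannot be told apart, and the part of these changes of makeup in the higher CPM of the 7 genes was not tested.

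The cell preparation comparison used papain suspensions of 4 other mice. It set them against Tissue RNA of the sort comparison's mice, sequenced again, so both comparisons rest on the same tissue. The Dounce suspension came from yet other mice. No suspension there shares a mouse with Tissue, so preparation and mice cannot be told apart. *Sox10* rose from 47.2 to 52.3 CPM in Tissue-Input to 129 to 172 CPM in Cell (-) Inhib-Input, 2.75-fold (log2 1.46 ± 0.10 SE, FDR = 1.9e-10). It was the only one of the 7 called there, against 25.6% of all genes. *Olig1* was separated from tissue in all mice, with 417 to 563 against 190 to 235 CPM, and its log2 difference of 1.00 ± 0.11 fell just short of the fold threshold (FDR = 1.9e-07). *Olig2*, at 89.4 to 120 against 39.2 to 55.8 CPM, was as close to it, with a log2 difference of 0.95 ± 0.13 (FDR = 2.1e-06). *Gpr17* had 22.2, 33.5, and 34.7 CPM in 3 mice and 73.5 CPM in replicate 4, around the tissue range of 26.2 to 32.4 CPM (log2 0.30 ± 0.26 SE, FDR = 0.31). *Pdgfra* had 15.2 to 38.8 CPM against 30.9 to 34 CPM (log2 -0.42 ± 0.19 SE, FDR = 0.058). The number called depended on single mice, with *Olig1* and *Olig2* this close to the threshold. It was 3 without Cell (-) Inhib-Input replicate 2 or Tissue-Input replicate 2, and 2 without Cell (-) Inhib-Input replicate 3 or 4 or Tissue-Input replicate 4.

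**Figure D1:**
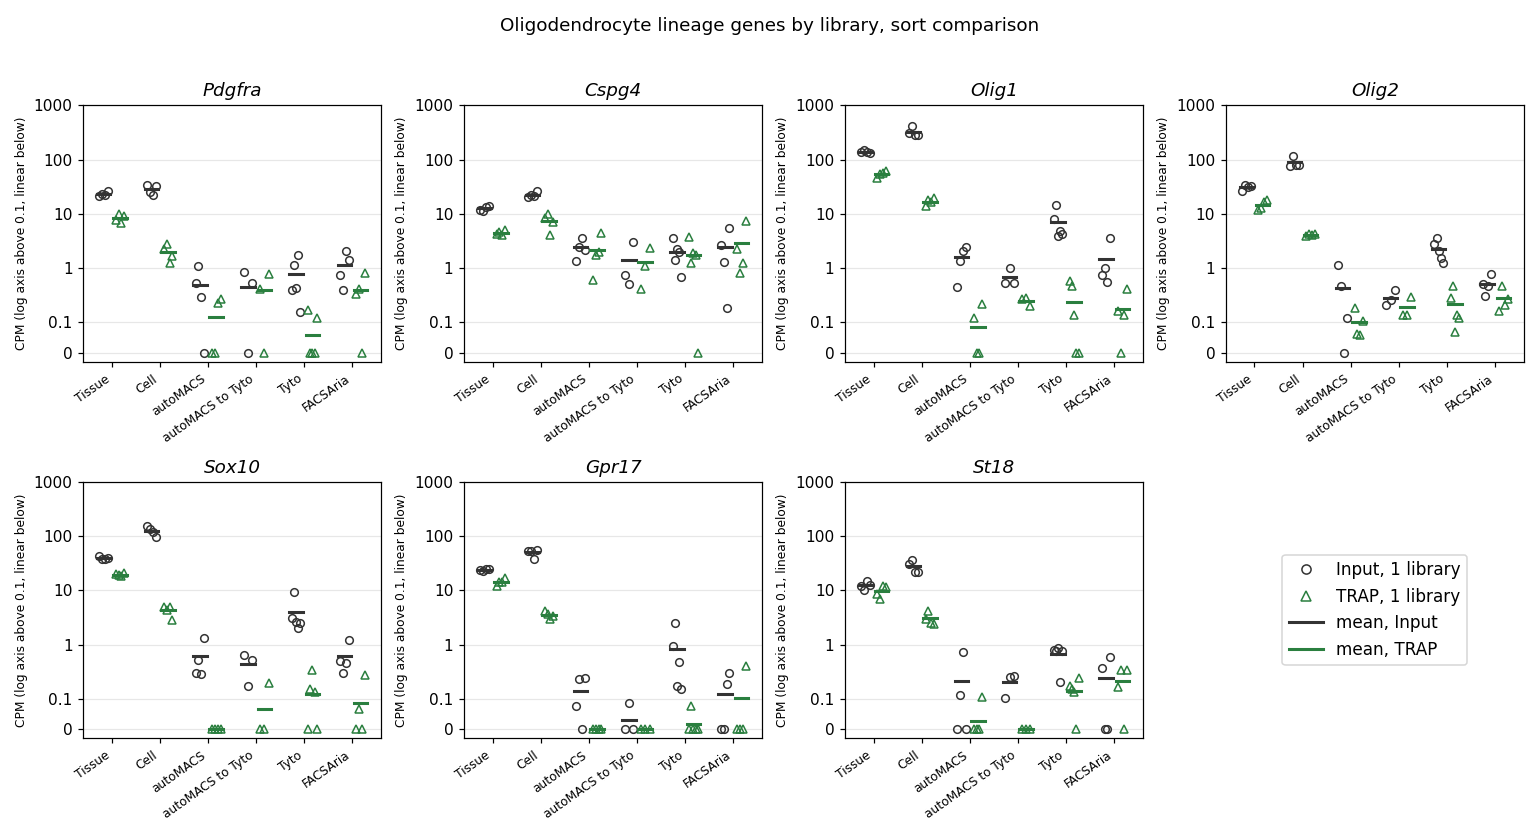
Level of each of the 7 genes in every library of the sort comparison, in CPM on an axis that is logarithmic above 0.1 and linear below it, with Input as circles, TRAP as triangles, and the group mean as a bar. *Olig1* goes from 134 to 148 CPM in Tissue-Input to 284 to 411 CPM in Cell-Input and to 14.5 CPM or less in every sorted library, and *Cspg4* stays nearest to its tissue level after sorting.

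Sorting for microglia took these transcripts down steeply, and on average *Cspg4* by the least. *Olig1* had 0.454, 1.35, 2.03, and 2.45 CPM in autoMACS-Input, or 1.13% of its mean in Tissue-Input. The same gene had 0.522, 0.530, and 1.03 CPM after autoMACS to Tyto, 3.94, 4.32, 4.90, 7.89, and 14.5 CPM after Tyto, and 0.563, 0.758, 1.00, and 3.58 CPM after FACSAria. Against Cell-Input, the kind of suspension from which the sorts start, the log2 difference of *Olig1* was -8.06 ± 0.44 (SE) in autoMACS, -8.99 ± 0.55 in autoMACS to Tyto, -5.77 ± 0.33 in Tyto, and -7.97 ± 0.44 in FACSAria, with an FDR of 1.1e-12 or below. All 7 genes were called lower than in Cell-Input in each of the 4 sorts. Over all genes, 33.4% were called lower in autoMACS, 33.7% in autoMACS to Tyto, 34.7% in Tyto, and 34% in FACSAria. These 4 comparisons share the same Cell-Input libraries. Those libraries, like Tissue-Input, come from other mice than the sorted cells, so sort and mice cannot be told apart. Without autoMACS-Input replicate 3, the library that stood apart, autoMACS still had all 7 called lower, with a log2 difference of -8.18 for *Olig1* and -3.71 for *Cspg4*.

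The nuclear factors *Olig2* and *Sox10* and the receptors *Pdgfra* and *Gpr17* followed *Olig1* to low levels. *Olig2* kept 0.929% to 7.22% of its tissue level over the 4 sorts, *Sox10* 1.13% to 9.98%, *St18* 1.68% to 5.48%, and *Gpr17* 0.119% to 3.51%. *Pdgfra* kept 1.97% to 4.99%, with single libraries between 0 and 2.06 CPM. Single libraries carry several of these shares, as a look at the means without each library, added after seeing the data, shows. *St18* in autoMACS was 0.317% without replicate 3 (1.70% with it), and in FACSAria, without replicate 4, *St18* was 1.02%, *Olig1* 0.556%, and *Gpr17* 0.261%. In Tyto, without replicate 2, *Sox10* was 6.53% and *Gpr17* 1.80%. *Pdgfra* was 1.18% in autoMACS without replicate 2 and 1.13% in autoMACS to Tyto without replicate 1, while in autoMACS *Olig2* was 0.640% without replicate 1 and *Sox10* 0.952% without replicate 4. The single count of *Gpr17* over the 3 autoMACS to Tyto-Input libraries gives a pooled 0.0347 CPM (95% exact Poisson interval 0.000879 to 0.194, counting error only). That is between 124-fold and 27232-fold lower than in Tissue-Input, an interval too wide to rank the sorts for this gene.

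*Cspg4* had the highest share of its tissue level in each sort, though with wide spread. Its libraries held 1.36, 2.20, 2.47, and 3.62 CPM in autoMACS-Input, 0.513, 0.742, and 3.00 CPM in autoMACS to Tyto-Input, 0.694, 1.43, 1.95, 2.23, and 3.58 CPM in Tyto-Input, and 0.188, 1.30, 2.65, and 5.57 CPM in FACSAria-Input. These means are 11.2% to 19.2% of Tissue-Input, against 0.119% to 9.98% for the other 6 genes. Some of these means rest on 1 library, since the share was 4.95% in autoMACS to Tyto-Input without replicate 3 and 10.9% in FACSAria-Input without replicate 4. In Tissue-Input the counts of *Cspg4* were a median of 0.0913 of those of *Olig1* in the same library. The ratio was 1.81 (range 0.900 to 3.00) in autoMACS-Input, 1.40 (0.500 to 5.75) in autoMACS to Tyto-Input, and 1.43 (0.333 to 3.50) in FACSAria-Input. In Tyto-Input it was 0.397 (0.0987 to 0.565), below 1 in every library. Against Cell-Input, the log2 difference of *Cspg4* was -3.53 ± 0.52 (SE) in autoMACS, -4.29 ± 0.63 in autoMACS to Tyto, -3.74 ± 0.47 in Tyto, and -3.46 ± 0.52 in FACSAria (FDR of 2.3e-06 or below).

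Genes of the other cell types that make *Cspg4* or *Pdgfra* also kept part of their tissue level. In Cell-Input the pericyte list stood at 407% and the fibroblast list at 266% of Tissue-Input, so both were far lower after sorting than in the suspension. The summed level of 10 pericyte genes, among them *Pdgfrb*, *Rgs5*, and *Kcnj8*, was 12.6% to 23.8% of Tissue-Input over the 4 sorted Input groups. A list of 10 fibroblast genes, among them *Col1a1*, *Dcn*, and *Lum*, stood at 19.8% to 38.3%. By comparison, the summed level of 12 progenitor genes outside the 7 (such as *Ptprz1*, *Vcan*, and *C1ql1*) stood at 2.10% to 5.95% and that of the 12 myelin genes at 6.12% to 14.4%. Such a sum need not hold for each gene of a list. In every autoMACS to Tyto-Input library, 4 of the 12 myelin genes and 6 of the 12 progenitor genes had 3 counts or fewer. A list of 10 endothelial genes, which reached 2420% in Cell-Input, stood at 123% to 280% of Tissue-Input in the sorted Input groups. No pericyte or fibroblast gene was at 0 in every library of a sorted Input group. Yet 3 of the 10 pericyte genes had 3 counts or fewer in every autoMACS to Tyto-Input library, as did 1 in Tyto-Input and 1 in FACSAria-Input. The part of such cells in the *Cspg4* of the sorted libraries was not tested.

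**Figure D2:**
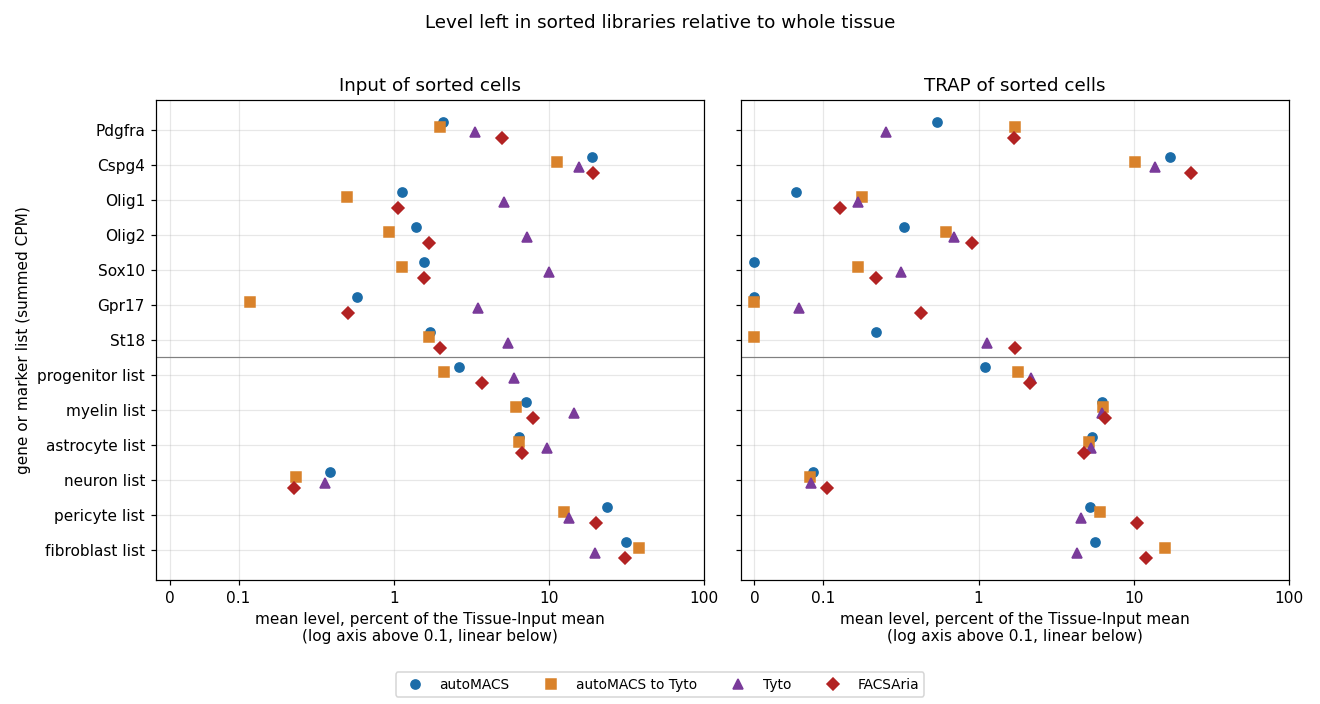
Percent of the Tissue-Input mean that each of the 7 genes, and the summed level of the progenitor, myelin, astrocyte, neuron, pericyte, and fibroblast lists, kept in the 4 sorted groups, in Input and in TRAP. *Cspg4* keeps 11.2% to 19.2% in sorted Input, beside the pericyte list at 12.6% to 23.8%, and 4.95% in autoMACS to Tyto-Input without replicate 3, while the other 6 genes keep 9.98% or less.

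The sort methods differed from each other for the lineage factors. In Tyto-Input every library held more *Olig1* (lowest 3.94 CPM) than any library of the other 3 sorts (highest 3.58 CPM). The same was true of *Olig2* (lowest 1.23 against highest 1.13 CPM) and of *Sox10* (lowest 2.01 against highest 1.35 CPM). How many of all genes separate Tyto-Input in this way was not taken, so the lack of overlap alone is no result about these genes. *Gpr17* in Tyto-Input, at 0.154 to 2.48 CPM, overlapped the other sorts, whose libraries held 0 to 0.298 CPM. The F test across the 4 sorted Input groups called *Olig1* (FDR = 0.00063), *Sox10* (FDR = 0.00063), *Olig2* (FDR = 0.0013), and *Gpr17* (FDR = 0.029). It did not call *St18* (FDR = 0.14), *Pdgfra* (FDR = 0.49), or *Cspg4* (FDR = 0.74), and over all genes it called 7.42%. When only the sorted libraries were fitted, 4 of the 7 genes passed the filter and 3 were called. *Gpr17*, with as few as 2 counts in a Tyto-Input library, did not pass it and was not tested there. Its call thus rests on a filter passed through the unsorted groups.

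Among the Tyto-Input libraries, replicate 2 was highest for all 4 called genes, with 14.5 CPM of *Olig1*, 3.53 of *Olig2*, 9.34 of *Sox10*, and 2.48 of *Gpr17*. With any 1 library left out, this F test still called 4 or 5 of the 7 genes. The myelin list was also higher in Tyto-Input, at 14.4% of tissue against 6.12% to 7.95% in the other sorts, and 10 of its 12 genes were called by the same F test. Of the astrocyte list 6 of 9 were called, of the progenitor list 4 of 12, and of the pericyte list 5 of 10. Where 1 mouse gave libraries to several sorts, the F test treats them as independent.

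The pull-down of tagged ribosomes from tissue lowered these genes only partly. In Tissue-TRAP *Olig1* had 46, 55.2, 56.1, and 60.5 CPM, which is 39.2% ± 5.01 (SD, n = 4) of the Input of the same mouse. *Cspg4* stood at 35.6% ± 3.60, *Pdgfra* at 36.6% ± 5.65, *Olig2* at 48% ± 8.25, and *Sox10* at 49.3% ± 2.63. These 5 genes were called lower in TRAP than in Input, with log2 differences between -1.55 and -1.07, and all 4 mice of each showed less in TRAP. *Gpr17* stood at 60.3% ± 8.49 and missed the fold threshold (log2 -0.78 ± 0.13 SE, FDR = 0.00014). *St18* stood at 78.2% ± 10.5 and was not called (log2 -0.39 ± 0.20 SE, FDR = 0.14). Over all genes only 3.26% were called lower, so 5 of the 7 is well above the background of this comparison.

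The Tissue RNA of the same mice, sequenced again for the cell preparation comparison, kept this order. *Cspg4* stood at 29.5%, *Pdgfra* at 32.4%, *Olig1* at 34.9%, *Olig2* at 40.4%, *Sox10* at 42.8%, *Gpr17* at 49.2%, and *St18* at 66.8% of Input. There 6 of the 7 were called lower, *St18* being the exception (FDR = 0.059), against 2.31% of all genes. The 9 neuronal genes had a median log2 difference of -0.12 in the sort comparison, with a summed level in Tissue-TRAP of 98.4% of Tissue-Input. All 12 myelin genes were called lower, with a median log2 difference of -2.39.

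From the suspension, the pull-down removed far more of each gene except *Cspg4*. *Olig1* fell from 284 to 411 CPM in Cell-Input to 14, 16.5, 17.7, and 19.2 CPM in Cell-TRAP, which is 5.34% ± 1.14 of Input. *Sox10* was at 3.40% ± 0.479, *Olig2* at 4.77% ± 0.775, *Gpr17* at 7.17% ± 0.982, *Pdgfra* at 7.20% ± 2.75, and *St18* at 10.9% ± 0.835. *Cspg4*, with 4.03, 6.94, 8.31, and 9.79 CPM in Cell-TRAP, kept 32.5% ± 12.0 of Input, close to its 35.6% in tissue. All 7 were called lower in Cell-TRAP than in Cell-Input, where 33.2% of all genes were.

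The test of the difference between the TRAP effects in Cell and in Tissue, an interaction term, separates *Cspg4* from the rest. It was called for *Sox10* (log2 -3.89 ± 0.20 SE), *Olig2* (-3.40 ± 0.21), *Gpr17* (-3.13 ± 0.21), *Olig1* (-2.94 ± 0.17), *St18* (-2.92 ± 0.30), and *Pdgfra* (-2.44 ± 0.28), with FDR of 9.0e-07 or below, against 32.7% of all genes called lower. For *Cspg4* the difference was -0.20 ± 0.26 (FDR = 0.53). By the same interaction all 10 pericyte genes were called lower, with a median of -1.97, and so were the 9 microglial genes, with a median of -1.78, all 9 neuronal, all 9 astrocyte, and all 12 myelin genes. The median over all genes was -0.33. *Cspg4* therefore lay above every one of the pericyte genes, of which the highest was *Notch3* at -1.49.

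Both suspensions of the cell preparation comparison gave the same calls. In Cell (-) Inhib, TRAP held 5.2% to 11.3% of Input for the other 6 genes and 24.3% for *Cspg4*, and all 7 were called lower, against 36.7% of all genes. In Cell (+) Inhib it held 2.94% to 6.97% and 22.3%, and again all 7 were called lower, against 35.8%. The interaction with Tissue was called for those 6 genes in both, with log2 values of -3.34 to -1.56 in Cell (-) Inhib (35.7% of all genes called) and -3.88 to -2.24 in Cell (+) Inhib (35% called). For *Cspg4* it was -0.34 ± 0.42 (FDR = 0.53) and -0.39 ± 0.43 (FDR = 0.47). The 3 interactions are not independent, since both inhibitor groups are set against the same Tissue libraries and those libraries come from the mice of the sort comparison.

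**Figure D3:**
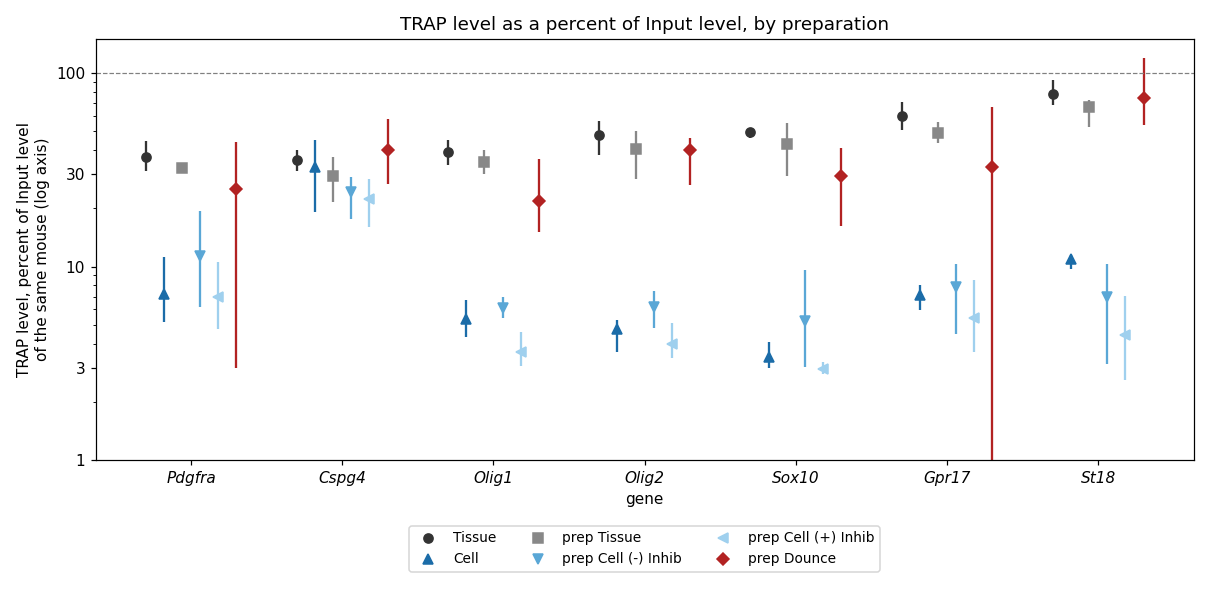
TRAP level as percent of the Input level of the same mouse for the 7 genes in the 6 unsorted preparations, on a logarithmic axis from 1, with the mean as a point and the lowest and highest mouse as the ends of a line. The other 6 genes drop from 36.6% to 78.2% in Tissue to 3.40% to 10.9% in Cell, and *Cspg4* stays at 32.5% in Cell. The Dounce means lie nearer to Tissue of the same comparison than to its papain suspensions. The *Gpr17* line in Dounce reaches 0 in 1 library, below the axis.

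The TRAP fractions of tissue, suspension, and sorted cells can also be compared with each other. They hold transcripts of other cell types beside those of the tagged cells. The neuronal list stood at 98.4% of Tissue-Input in Tissue-TRAP and 3.12% in Cell-TRAP, and the astrocyte list at 138% and 57.2%. The part of such transcripts in the differences of the 7 genes was not tested. *Sox10* had 18.1 to 20.6 CPM in Tissue-TRAP and 2.87, 4.44, 4.85, and 4.92 CPM in Cell-TRAP, a 4.48-fold lower level (log2 -2.16 ± 0.35 SE, FDR = 7.8e-06). *Pdgfra* was 4.22-fold lower (6.81 to 10.1 against 1.24 to 2.80 CPM), *Gpr17* 4.05-fold (11.8 to 17.2 against 2.96 to 4.19 CPM), and *Olig2* 3.55-fold (11.8 to 17.9 against 3.97 to 4.31 CPM). *Olig1* and *St18* were each 3.20-fold lower, and no gene of these 6 overlapped between the groups. The share of all genes without such overlap was not taken, so this is no result about the 6. *Cspg4* had 4.13 to 5.00 CPM in Tissue-TRAP and 4.03 to 9.79 CPM in Cell-TRAP (log2 0.70 ± 0.63 SE, FDR = 0.31). In all, 6 of the 7 were called lower, against 29.3% of all genes.

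TRAP from sorted cells left most of these genes at or near 0. *Sox10* had no count in any of the 4 autoMACS-TRAP libraries, which with a floor of 3 counts per library is at least 226-fold lower than its Tissue-Input mean. *Gpr17* had none in autoMACS-TRAP (at least 138-fold lower) or autoMACS to Tyto-TRAP (at least 102-fold lower), and *St18* none in autoMACS to Tyto-TRAP (at least 52.5-fold lower). Those floors and intervals cover counting error only. *Olig1*, the most abundant of the 7 in tissue, had 0 to 0.571 CPM in the 16 sorted TRAP libraries, and *Olig2* had 0.0580 to 0.471 CPM.

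By group means *Cspg4* again kept more than the others, 10.2% to 23.3% of Tissue-Input against 0% to 1.72%. Its share was 11.3% in FACSAria-TRAP without replicate 4 (23.3% with it), 11.3% in autoMACS-TRAP without replicate 4 (17.1% with it), and its mean in autoMACS to Tyto-TRAP was 0.761 CPM without replicate 3 (1.29 CPM with it). Its autoMACS-TRAP libraries had 0.601, 1.74, 1.97, and 4.37 CPM, and its FACSAria-TRAP libraries 0.808, 1.25, 2.23, and 7.53 CPM. The highest FACSAria-TRAP value and the highest FACSAria-Input value of *Cspg4* (5.57 CPM) came from the same mouse, replicate 4. Against Cell-TRAP all 7 genes were called lower in autoMACS, autoMACS to Tyto, and Tyto, and 6 in FACSAria, where *Cspg4* was at the threshold (log2 -1.31 ± 0.65 SE, FDR = 0.1002). Over all genes 23.0%, 21.7%, 23.2%, and 21.9% were called lower in these 4 comparisons. They share the Cell-TRAP libraries, which come from other mice than the sorted cells. The pericyte list stood at 4.58% to 10.5% and the fibroblast list at 4.28% to 15.8% of Tissue-Input in sorted TRAP, with the endothelial list at 151% to 215%, and their part in the *Cspg4* counts was not tested.

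Across the 4 sorted TRAP groups the F test called only *St18* (FDR = 0.046), which had 0 CPM in the 3 autoMACS to Tyto libraries, 0, 0, 0, and 0.108 CPM in autoMACS, 0 to 0.243 CPM in Tyto, and 0 to 0.342 CPM in FACSAria. Over all genes this F test called 4.17%. When only the sorted libraries were fitted, *St18* did not pass the filter and was not tested. The number called was 2 without FACSAria-TRAP replicate 1 or 2 or autoMACS to Tyto-TRAP replicate 2, and 3 without FACSAria-TRAP replicate 3.

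The inhibitors of transcription and translation made no called difference to the 7 genes. In Input, Cell (+) Inhib against Cell (-) Inhib gave log2 differences from -0.40 ± 0.26 for *Cspg4* to 0.27 ± 0.21 for *St18*, with 0 of the 7 called by edgeR, 1 at an unadjusted p under 0.05, 0 by DESeq2, and 0 by limma. Of all genes 0.311% were called lower, and 532 of the 15753 tested had an unadjusted p under 0.05 by edgeR. In TRAP all 7 differences were negative, between -0.90 ± 0.56 for *Gpr17* and -0.26 ± 0.33 for *St18*. *Olig1*, at 22.7, 26.9, 27.6, and 39.3 CPM without and 13.7, 15.5, 18.7, and 22.6 CPM with inhibitors, had the lowest FDR of them (log2 -0.72 ± 0.22 SE, FDR = 0.15), and no mouse overlapped. Again 0 were called by edgeR, 1 at an unadjusted p under 0.05, and 0 by DESeq2 or limma, while 0.632% of all genes were called lower. By edgeR, 1313 of the 14723 genes tested had an unadjusted p under 0.05. Both suspensions came from the same 4 mice.

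Against Tissue, the suspension with inhibitors behaved much as the one without. In Input *Sox10* had 168 to 199 CPM and was 3.30-fold higher, and *Olig1*, with 445 to 556 CPM, was 2.04-fold higher (log2 1.03 ± 0.11 SE), these 2 being the ones called, against 25.5% of all genes. Without Cell (+) Inhib-Input replicate 1 or Tissue-Input replicate 1 only 1 was called. In TRAP, 6 of the 7 were called lower than Tissue-TRAP in each suspension, with log2 differences of -2.70 to -1.30 without and -2.97 to -1.93 with inhibitors, where 30.8% and 31.2% of all genes were called. *Cspg4* had 4.57 to 8.61 CPM without and 3.17 to 7.87 CPM with inhibitors, against 3.29 to 5.65 CPM in Tissue-TRAP, and was not called (log2 0.54 ± 0.34 and 0.10 ± 0.34 SE, FDR = 0.16 and 0.81).

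**Figure D4:**
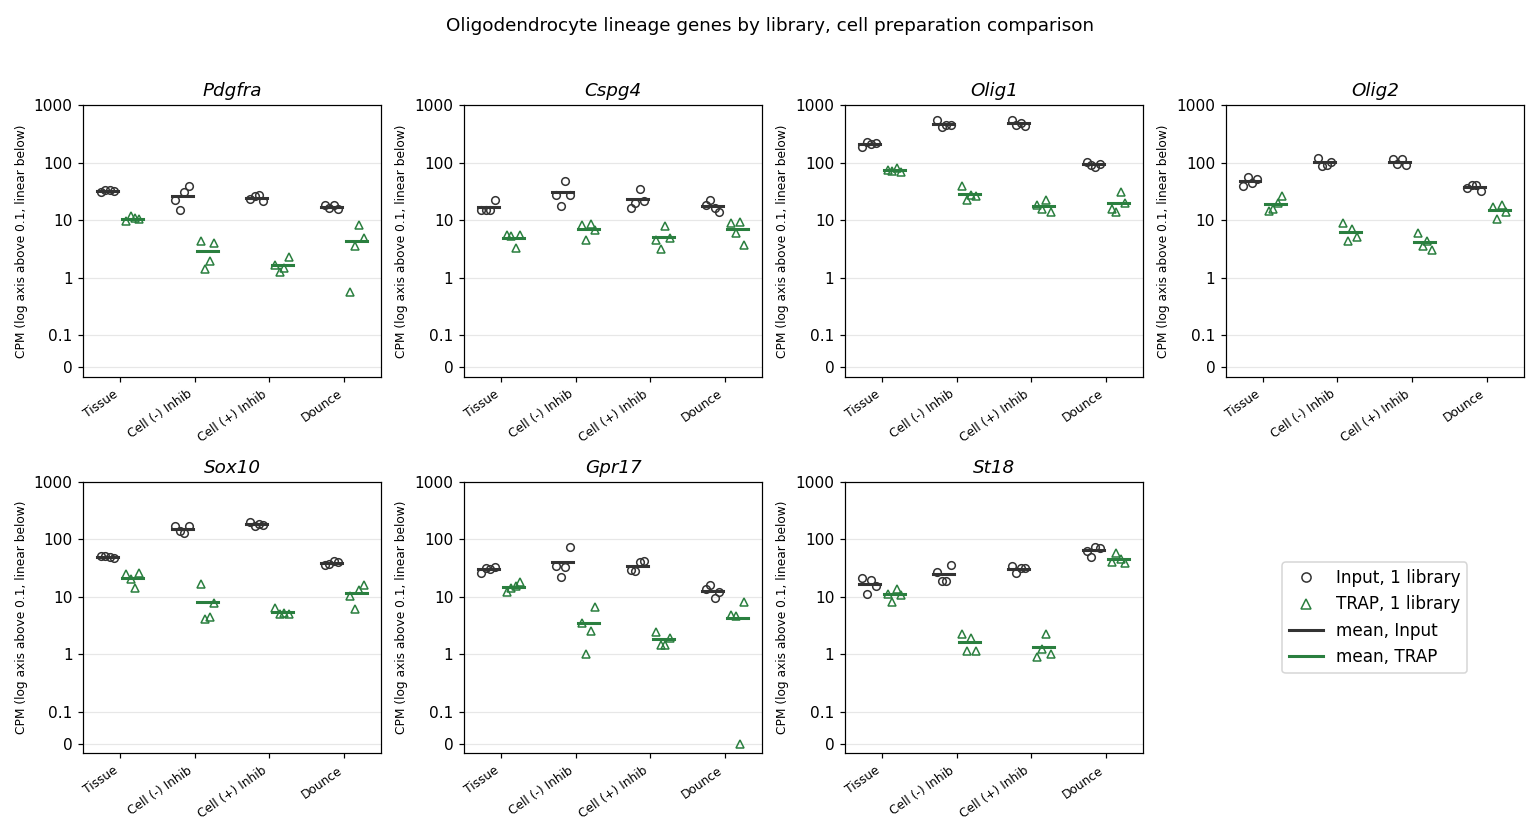
Level of each of the 7 genes in every library of the cell preparation comparison, in CPM on an axis that is logarithmic above 0.1 and linear below it, with Input as circles, TRAP as triangles, and the group mean as a bar. *St18* is highest in Dounce, at 48.5 to 73.7 CPM in Input and 38.9 to 57.9 CPM in TRAP, while *Olig1* is lower in Dounce-Input (85.9 to 105 CPM) than in Tissue-Input (190 to 235 CPM).

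The cold mechanical Dounce suspension gave another order of the 7 genes than papain, with *St18* up and *Olig1* and *Gpr17* down. *St18* had 48.5, 63.2, 72.0, and 73.7 CPM in Dounce-Input, against 11.2, 15.4, 19.4, and 21.1 CPM in Tissue-Input. All 4 Dounce mice lie above all tissue mice, and the 4.40-fold difference was called (log2 2.14 ± 0.22 SE, FDR = 3.4e-08), where 28.7% of all genes were called higher. *Gpr17*, with 9.68, 12.0, 13.6, and 16.2 CPM against 26.2 to 32.4 CPM, was called 2.01-fold lower (log2 -1.01 ± 0.28 SE, FDR = 0.0028), where 21.4% were. *Olig1*, with 85.9, 92.3, 93.7, and 105 CPM against 190 to 235 CPM, was 1.97-fold lower and so missed the fold threshold (log2 -0.98 ± 0.12 SE, FDR = 2.7e-07). *Olig1* and *Gpr17* both lie at that threshold, and the number called was 1 without Tissue-Input replicate 2 or 4 or Dounce-Input replicate 3 or 4.

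The other 4 genes moved less in Dounce-Input. *Pdgfra* had 15.7 to 18.7 CPM against 30.9 to 34 CPM in tissue, with no overlap, which is 1.63-fold lower (log2 -0.71 ± 0.20 SE, FDR = 0.0035). *Sox10* had 36.3 to 41.5 CPM, below the tissue range of 47.2 to 52.3 CPM (log2 -0.16 ± 0.10 SE, FDR = 0.17). *Olig2* (32.4 to 41.2 against 39.2 to 55.8 CPM) and *Cspg4* (13.9 to 22.1 against 15.2 to 22.9 CPM) overlapped tissue, with FDR of 0.36 and 0.41.

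Set against the papain suspension without inhibitors, Dounce-Input was called lower for *Olig1* (3.93-fold), *Sox10* (3.07-fold), *Gpr17* (2.47-fold), and *Olig2* (2.12-fold), and higher for *St18* (3.23-fold). Of all genes 28.1% were called lower and 28.8% higher. *Pdgfra* (log2 -0.28 ± 0.20 SE, FDR = 0.2) and *Cspg4* (log2 -0.43 ± 0.27 SE, FDR = 0.15) were not called. Neuronal genes stood at 35.2% of tissue in Dounce-Input and 7.77% in Cell (-) Inhib-Input, astrocyte genes at 51% and 221%, and myelin genes at 122% and 379%. Endothelial genes stood at 42.1% and 2527%. The RNA of Dounce-Input was also described as the least intact of these preparations, which these files do not measure. The 2 preparations also share no mouse. They thus differ in their mixture of cells, in RNA quality, and in their mice, and the part of each in the differences of the 7 genes was not tested.

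**Figure D5:**
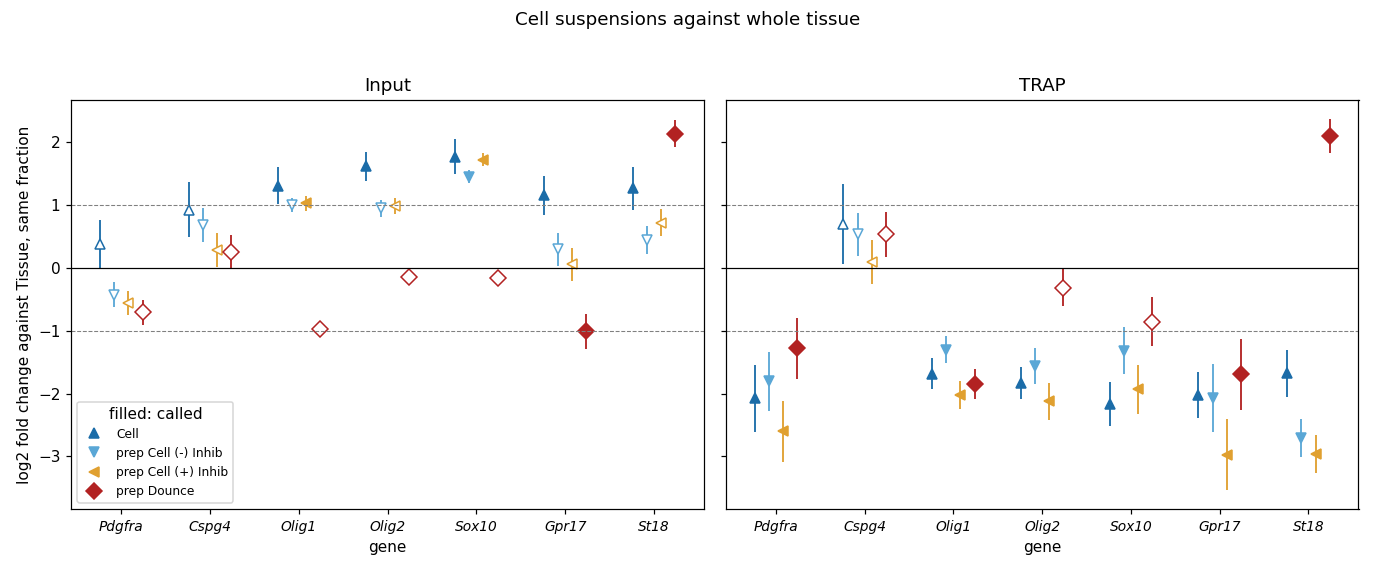
Log2 fold change against Tissue in the same fraction for the 7 genes in 4 unsorted suspensions, with bars of 1 SE, filled where called and with dashed lines at a 2-fold change. The papain suspensions lie above 0 in Input for *Sox10*, *Olig1*, and *Olig2* and below 0 in TRAP, while *St18* in Dounce lies above 2 in both fractions.

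In Dounce-TRAP *St18* was again the one gene called higher than in tissue. Its libraries had 38.9, 39.8, 45, and 57.9 CPM, against 8.13, 10.8, 11.1, and 13.9 CPM in Tissue-TRAP and 1.13, 1.16, 1.93, and 2.23 CPM in Cell (-) Inhib-TRAP. It was 4.30-fold higher than in Tissue-TRAP (log2 2.10 ± 0.27 SE, FDR = 1.4e-06), where 23.2% of all genes were called higher. Compared with Cell (-) Inhib-TRAP, it was 28.0-fold higher (log2 4.81 ± 0.31 SE, FDR = 9.6e-10), where 20.7% were. Within a library, the counts of *St18* were a median of 0.0805 of those of *Olig1* in Tissue-Input, 0.684 in Dounce-Input, and 2.22 in Dounce-TRAP.

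In Dounce-TRAP 3 genes were called lower than in Tissue-TRAP, against 27.1% of all genes. *Olig1* had 13.9, 15.9, 20.05, and 31.0 CPM against 69.6 to 80.6 CPM, 3.60-fold lower (FDR = 1.1e-06). *Gpr17* had 0 CPM in replicate 3 and 4.63, 4.74, and 8.02 CPM in the others, against 12.1 to 18.1 CPM (3.22-fold lower, FDR = 0.013), and *Pdgfra* had 0.557 CPM in replicate 1 and 3.58, 4.93, and 8.15 CPM in the others, against 9.56 to 11.7 CPM (2.43-fold lower, FDR = 0.027). The low libraries rest on few counts, since that of *Pdgfra* held 2. *Olig2* (10.7 to 18.6 against 14.6 to 26.3 CPM), *Sox10* (6.10 to 16.3 against 14.5 to 26.0 CPM), and *Cspg4* (3.70 to 9.31 against 3.29 to 5.65 CPM) were not called. Besides *St18*, only *Olig2* was called against Cell (-) Inhib-TRAP, 2.37-fold higher (log2 1.24 ± 0.30 SE, FDR = 0.0018).

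After the pull-down from Dounce, the mean share of Input was nearer to Tissue of the same comparison than to the papain suspensions for each of the 7 genes. For *Olig1*, *Sox10*, and *Gpr17* it lay below the 34.9%, 42.8%, and 49.2% of that Tissue. *Pdgfra* and *Olig2* also lay below Tissue, and *Cspg4* and *St18* above. TRAP was 21.9% ± 9.94 of Input for *Olig1*, 25.0% ± 17.2 for *Pdgfra*, 29.4% ± 10.3 for *Sox10*, 32.6% ± 27.4 for *Gpr17*, 40.1% ± 9.26 for *Olig2*, 40.2% ± 15.6 for *Cspg4*, and 74.3% ± 30.2 for *St18* (SD, n = 4). Of the 7, 6 were called lower than Input, all but *St18* (FDR = 0.052), against 26.7% of all genes. The interaction with Tissue called 0 of the 7 by edgeR, 1 at an unadjusted p under 0.05, and 0 by DESeq2 or limma, with log2 differences from -0.73 ± 0.24 for *Olig1* (FDR = 0.016, under the fold threshold) to 0.43 ± 0.45 for *Cspg4*. Of all genes 18.3% were called lower and 11.8% higher, and 8182 of the 15894 tested had an unadjusted p under 0.05 by edgeR. Without Dounce-TRAP replicate 3, the library with no *Gpr17*, the interaction called 2 of the 7. At the low depth of Dounce-TRAP, a missing call does not show that the effects are alike.

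The myelin genes moved in part with *St18* in Dounce. In Dounce-Input 8 of the 12 were called higher than in tissue, from *Aspa*, an enzyme that breaks down N-acetylaspartate (log2 2.06), and 1 lower, *Cnp* (log2 -1.56), with a median of 1.13 over the list and 0.10 over all genes. In Dounce-TRAP 7 were called higher, *Aspa* the most (log2 3.08), and the lowest value was that of *Mbp* (log2 -0.26). The 12 progenitor genes outside the 7 gave 3 called higher in Dounce-Input, with *Pcdh15* highest (log2 2.60) and *Bcan* lowest (log2 -0.96), and 3 higher and 6 lower in Dounce-TRAP. Of 10 committed precursor genes 5 were called higher in Dounce-Input, the highest being *Enpp6* (log2 2.38). Of 6 lineage factors tested, 1 was called higher in Dounce-Input, *Zfp488* (log2 2.91), and 0 lower. In Dounce-TRAP 2 were called higher, with *Zfp488* highest (log2 3.75), and 2 lower, with *Zfp536* lowest (log2 -1.55). The summed level of the factors was 238% of Tissue-Input in Dounce-Input and 300.1% in Dounce-TRAP, where the 4 libraries ran from 137 to 757 CPM. None of these lists holds *St18*, and their part in its level was not tested.

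The other lineage genes bear on how far the 7 stand for their stage. In Cell-Input 5 of 12 progenitor genes were called higher than in tissue, the highest being *Xylt1* (log2 2.82), and 3 lower, the lowest being *Megf11* (log2 -1.78), so this list did not move one way. Of the committed precursor genes 6 of 10 were called higher, with *Enpp6* at the top (log2 2.59), and of 6 lineage factors tested 3 were called higher, with *Nkx2-2* at the top (log2 1.57). The median log2 difference was 0.54 for the progenitor, 1.18 for the committed precursor, and 0.95 for the lineage factor list, beside 1.27 for the 7 genes and 0.17 for all genes. In the 4 sorts all 12 progenitor genes were called lower than in Cell-Input. The exceptions among the precursor and factor lists were *Itpr2*, an inositol trisphosphate receptor, which was 17.8 CPM in Tissue-Input and 309 to 317 CPM in the 4 sorted Input groups, and the zinc finger factor *Zfp488*, which was 16.4 CPM in Tissue-Input and 44.6 to 45.2 CPM in the 3 FACS groups. In autoMACS-Input *Zfp488* was 282 CPM in replicate 3, the library that stood apart, and 40.8 CPM ± 14.6 (SD, n = 3) in the others.

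A list of 5 genes holds the PDGF ligands and the beta receptor. In Cell-Input 4 of its 5 genes were called higher, with *Pdgfd*, a ligand of the beta receptor, highest (log2 4.93) and *Pdgfa*, the ligand of the receptor that *Pdgfra* encodes, lowest and not called (log2 -0.33). In each of the 4 sorted Input groups 1 was called higher than in Cell-Input and 3 lower, and the one with the highest log2 difference was *Pdgfb*, at 1.49 to 1.80, as the lowest was *Pdgfd*. In tissue, TRAP was called higher than Input for 1 gene of this list, *Pdgfb* (log2 1.22).

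Set by their pattern over the 18 groups other than Tissue-Input, *Olig2* and *Sox10* were the most alike of the 7. The measure is the root mean square difference of group-mean log2(CPM + 1), each gene taken relative to its own Tissue-Input, over 10912 genes with at least 5 CPM in Tissue-Input of both comparisons. It was 0.36 between *Olig2* and *Sox10* and 0.49 between *Pdgfra* and *Gpr17*, and was largest between *Cspg4* and *Olig1* (2.86). The gene nearest to *Olig2* was *Sox8* (0.33), followed by *Sox10*. For *Sox10* the nearest were *Slain1* (0.33) and *Il33* (0.35), for *Olig1* *S100b* (0.47) and *Plekhb1* (0.52), and for *Pdgfra* 2610017I09Rik (0.45) and *Sox11* (0.46). *Gpr17* was nearest to *Spry2* and 2610017I09Rik (both 0.39), and *Cspg4* to *Tnc* (0.36) and *Ltbp1* (0.42). *St18* was nearest to *Fsd1l* (0.42) and *Arhgap23* (0.48), which had 116 and 279.5 CPM in Dounce-Input. The median over all genes was 2.03 to 4.43 for the 7. This measure describes group means that share libraries.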

How the data were processed

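Stranded poly(A) libraries from 80 samples were sequenced by the authors and processed in Strand NGS, with directional alignment to mm10 and removal of duplicate reads. The deposited expected counts are the authors' reads per gene, of which 33.24% (sort) and 20.76% (cell preparation) are whole, and were rounded here. The deposited log2 values were made by the authors with DESeq2 normalization and set to a median of 0 over Tissue-Input for each gene. An earlier table of the cell preparation comparison was not used here. Genes are listed where all samples of some group exceed 5 reads.

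Groups come from the sample labels, and mice from the sample titles. The 6 fits (Input, TRAP, and both fractions together, in each comparison) used edgeR 4.0.16 in R 4.3.3 with TMM, group as the only factor, and the same filter, giving 32 comparisons. Calls need an FDR under 0.1 and a fold change above 2, the thresholds of the authors. In the F tests the largest fold between groups was used. CPM use TMM library sizes. The closest 2 libraries of a group differed by a chi-square of 3.53 per gene, so none was counted as a duplicate. On simulated data the Cell-Input against Tissue-Input test, over 15022 genes, recovered 97% of 3-fold and 97% of 8-fold changes, and the interaction in Cell, over 15174 genes, 82% and 96%. In the Dounce-TRAP against Tissue-TRAP test, over 14512 genes, the shares were 93% and 99%. The simulation gave every gene the same dispersion and its mean over all groups, and it changed far fewer genes than were called here. These shares thus do not give the power of the real tests.

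Mouse numbers pair the TRAP and Input libraries of a preparation, Tissue with Cell, and Cell (-) with Cell (+) Inhib. Deviations from the group means correlated between libraries of the same mouse at 0.0238 to 0.444 for TRAP and Input, at -0.0936 to 0.183 for Tissue and Cell, and at -0.0465 to 0.565 for the inhibitor groups. A fit with the mouse as a block was an alternative, beside DESeq2 1.42.0, DESeq2 size factors, limma 3.58.1 on the log2 values, a filter of more than 10 counts, fits of only the groups compared, no filter, and leaving out each of the 80 libraries.

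The 7 genes and all gene lists were chosen with earlier results of these data known. Named genes are the 7, the 2 genes most like each, and the highest and lowest of a list in a comparison. *Itpr2* and *Zfp488* were picked out in the sorted groups as the highest of their lists. Examples of a list, and *Lims2*, are named only to say what is meant. P-values measure the spread between the libraries of a group, which come from different mice. The fits with group as the only factor treat libraries of the same mouse in different groups as independent. Fitted fold changes are not printed for groups whose libraries all held 3 counts or fewer. A gene of the microglial list and a gene of the lineage factor list are not reported here.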

Additional observations from a re-analysis of the deposited data

Results flagged for a closer look

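Of 126 pairs of gene and group with 4 or 5 libraries, 11 had 1 library apart from the others by Dixon's test at the 95% level. Chance gives this in about 1 of 20 for continuous values, a rate that does not hold for genes with few counts. *Cspg4* was 22.9 CPM in replicate 4 of Tissue-Input of the cell preparation comparison, with the others at 15.2 to 15.4, and 3.29 CPM in replicate 3 of its Tissue-TRAP, with the others at 5.38 to 5.65. *Olig1* was 3.58 CPM in FACSAria-Input replicate 4 against 0.563 to 1.00 in the others. *Olig2* was 116 CPM in Cell-Input replicate 2 against 77.4 to 81.1. *Sox10* was 9.34 CPM in Tyto-Input replicate 2 against 2.01 to 3.12, and 6.38 CPM in Cell (+) Inhib-TRAP replicate 1 against 4.98 to 5.19. *Gpr17* was 0.0770 CPM (1 count) in Tyto-TRAP replicate 2 and 0.411 CPM (6 counts) in FACSAria-TRAP replicate 4, with all others of these groups at 0. *St18* was 0.725 CPM in autoMACS-Input replicate 3 against 0 to 0.118, 0.201 CPM in Tyto-Input replicate 4 against 0.763 to 0.856, and 0.108 CPM (2 counts) in autoMACS-TRAP replicate 4 with the others at 0. Where all other libraries are at 0, any count passes Dixon's test, so such a flag carries no weight.

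The effect of the pull-down differed between the papain suspensions and tissue for every gene of the 7 except *Cspg4*, by the interaction term of edgeR's quasi-likelihood test. In Cell the log2 difference was -2.44 for *Pdgfra* (FDR = 9.0e-07), -2.94 for *Olig1* (FDR = 2.3e-10), -3.40 for *Olig2* (FDR = 6.0e-10), -3.89 for *Sox10* (FDR = 1.2e-10), -3.13 for *Gpr17* (FDR = 9.9e-10), and -2.92 for *St18* (FDR = 2.4e-07). In Cell (-) Inhib it was -1.56 for *Pdgfra* (FDR = 0.0028), -2.49 for *Olig1* (FDR = 4.0e-10), -2.69 for *Olig2* (FDR = 3.4e-09), -2.95 for *Sox10* (FDR = 4.2e-08), -2.55 for *Gpr17* (FDR = 0.00015), and -3.34 for *St18* (FDR = 8.3e-09). In Cell (+) Inhib it was -2.24 for *Pdgfra* (FDR = 0.00011), -3.25 for *Olig1* (FDR = 2.2e-12), -3.31 for *Olig2* (FDR = 9.1e-11), -3.85 for *Sox10* (FDR = 4.8e-10), -3.23 for *Gpr17* (FDR = 1.3e-05), and -3.88 for *St18* (FDR = 6.2e-10).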

How the results depend on the processing

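Over the 7 settings other than leaving out a library, 200 numbers of genes called stayed within 1.5 times and 6 did not, and 16 did not when 1 library was left out, against 704 that did. For Cell-Input against Tissue-Input limma called 3 genes (edgeR 5). For the F test of sorted TRAP, DESeq2 called 4 and a fit of only the sorted groups 0 of the 1 gene that passed its filter (edgeR 1 of 7), and with 1 library left out 1 to 3. In the cell preparation comparison, Cell (-) Inhib-Input against Tissue-Input had 3 with limma (edgeR 1) and 1 to 3 with 1 library left out, and Cell (+) Inhib-Input had 1 with DESeq2 or its size factors (edgeR 2) and 1 to 3. Dounce-Input against Tissue-Input had 1 to 3 (edgeR 2), and the Dounce interaction 0 to 2 (edgeR 0). The cause was not tested.

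The sign changed only in differences that were not called, and the ranges that follow are those with 1 library left out. For *Cspg4*, Dounce-TRAP against Cell (-) Inhib-TRAP was 0.0124 with the stricter filter, 0.0301 with only these groups, and -0.160 to 0.200, and Cell (+) Inhib-TRAP against Tissue-TRAP -0.182 to 0.266. Its interaction was -0.352 to 0.00875 in Cell, -0.672 to 0.0611 in Cell (+) Inhib, and in Cell (-) Inhib -0.529 to 0.114, 0.110 with only these groups, and 0.159 with the mouse as a replicate block. For *Gpr17*, Dounce-TRAP against Cell (-) Inhib-TRAP was -0.481 with limma and -0.0412 to 0.907, and Input against Tissue-Input -0.156 to 0.504 in Cell (-) and -0.0442 to 0.154 in Cell (+) Inhib. The Dounce interaction of *St18* was -0.0882 with DESeq2 size factors, -0.0908 with DESeq2, -0.104 with limma, and -0.0917 to 0.267, and that of *Olig2* -0.366 to 0.156. Cell (+) against Cell (-) Inhib-Input was -0.329 to 0.106 for *Pdgfra*, -0.0392 to 0.125 for *Olig1*, -0.0195 to 0.129 for *Olig2*, and -0.442 to 0.219 for *Gpr17*. The block changed no number of genes called. DESeq2 size factors moved the median of all genes by -0.33 in Cell-TRAP against Tissue-TRAP. Without TMM, 27 levels moved by more than 1 SD and 113 did not. All 560 means with 1 library of the group left out, an alternative added after seeing the data, stayed within 1 SD. Leaving out 1 library cannot move a mean by more than that, so this says nothing about dependence on single libraries. Some shares of the tissue level did rest on 1 library, as given above. Depth limits the sorted TRAP libraries, where most of the 7 genes had few counts, and Dounce-TRAP.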
